A study of Homo sapiens with 9 samples.

Results

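The transcription factor ATF4 and 7 genes that work with it or under it in the stress response (ATF3, DDIT3, TRIB3, CHAC1, SESN2, GDF15 and SLC7A11) were followed in 9 RNA-seq libraries, as 8 of the 22290 genes of the expression table. The 8 genes were chosen by name as ATF4, its partners and its targets, and selected on earlier results of the same 9 libraries, so their levels and differences are given as a description with no test. The study asked how the mitochondrial chaperone TRAP-1 shapes gene expression. It used cells labelled IMR-32, an established human neuroblastoma line: 3 libraries each of parental cells (PAR), of a line whose label is knockdown (KD) and of a line whose label is overexpression (OE) of TRAP-1. The KD and OE cells had been made before this study, and whether each is a single clone is not stated in the sources used here. The labels do not say that replicates were separate cultures, so p-values measure the spread between these libraries, which may be technical. The values are rlog values, which are on a log2 scale, scaled for library size by the authors and shrunken toward each gene's mean, most strongly for weakly expressed genes. A difference of rlog values is therefore not a fold change, and none is turned into one here. Whether shrinkage alone sets the size of these differences was not resolved. The depth of the libraries is unknown from rlog values.

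ATF4 is the central factor of the integrated stress response. The kinases HRI, PKR, PERK and GCN2 (genes EIF2AK1 to EIF2AK4) phosphorylate the translation factor eIF2α, which lowers protein synthesis in general but favours translation of the ATF4 message, so that the mRNA level of ATF4 is not a measure of its protein. ATF4 binds C/EBP-ATF response elements together with partners such as C/EBPγ and turns on genes for amino acid synthesis and uptake, tRNA charging and redox balance. Damaged or stressed mitochondria can set off the same response through HRI, which is why it is of interest for a mitochondrial chaperone.

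The targeted gene was looked at first. TRAP1 read 10.67, 10.66 and 10.65 in the parental libraries, 10.79, 10.79 and 10.83 in the libraries labelled KD and 10.67, 10.63 and 10.74 in the libraries labelled OE. Instead of a loss of TRAP1, all 3 libraries labelled KD stood above all 3 parental ones, by 0.14 ± 0.025 (SE, limma adjusted p = 1.76e-05), and in the libraries labelled OE the difference from parental cells was 0.02 ± 0.025 with overlapping groups and no call. With the median of the genes in the same 20-Mb stretch removed, this OE difference was 0.06 and was called higher. The TRAP1 mRNA goes against the KD label and its rise in OE depends on that step, so every direction below refers to the label of a library and not to a measured loss or gain of TRAP1. TRAP1 shares 28.5% of its annotated exonic bases with other genes, mainly DNASE1, and reads on shared bases cannot be assigned when a library does not mark strand.

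The cell line label was checked against markers of neuroblastoma. MYCN, which is known to be amplified in IMR-32, stood at a mean rlog of 2.52 in parental cells, the noradrenergic factor PHOX2A at 1.33 and the catecholamine enzyme TH at 2.84. These levels are near the floor of the table, where the lowest value is 0.14 and the median gene has a mean rlog of 7.05. Other markers of the list were expressed, with ISL1 at 9.37, GATA3 at 7.25, HAND2 at 6.36 and CHGB at 5.87. The intermediate filament gene VIM reached 15.72 in parental cells, and the epithelial keratin KRT18 12.06. The low markers go against the label and the others do not, so the cells are called parental, KD and OE here, and no other cell type is named.

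The summed level of 7 mesenchymal markers is mostly that of VIM and PRRX1 and does not stand for the list, of which 3 were called higher in KD and 4 were not called. It was 15.83 in each parental library, 16.26 to 16.27 in the libraries labelled KD and 16.00 to 16.03 in those labelled OE, while COL1A2 and COL3A1 were near the floor at 1.35 and 1.16 in parental cells and PDGFRB, at 8.48, differed by 0.06 in KD with no call. The summed level of 8 epithelial markers, led by KRT18, was 12.51 to 12.52 in parental libraries, 12.53 to 12.59 in the libraries labelled KD and 12.38 to 12.39 in those labelled OE, with EPCAM at 2.59 and ELF3 at 0.90 in parental cells. Of the immune and endothelial markers 4 had values. Their sum, led by PECAM1, was 9.50 to 9.52, 9.95 to 9.99 and 9.20 to 9.31 in the same order, while PTPRC and CDH5 were at 2.65 and 0.63 in parental cells. The part of these differences in the results below was not tested.

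ATF4 itself was the most abundant of the 8 genes and among those that differed least. The gene (ENSG00000128272, GRCh38 chr22:39519695-39522683, plus strand) read 14.11, 14.12 and 14.08 in the parental libraries. It read 13.98, 13.98 and 14.00 in the libraries labelled KD and 14.06, 14.03 and 14.09 in those labelled OE. The KD values all lay under the parental ones and the OE values overlapped with them, with means of 14.11 ± 0.024, 13.99 ± 0.011 and 14.06 ± 0.030 (SD, n = 3 in this and the following means, in the order parental, KD, OE). The group means differed by -0.12 ± 0.01 (SE) for KD and by -0.04 ± 0.01 for OE against parental cells. Against the 272 genes whose mean rlog was within 0.5 of that of ATF4, the KD difference was ordinary: 50.4% of them had a smaller absolute difference, and their median absolute difference was 0.12. For OE the share was 35.7%. The annotation holds 4 processed copies of ATF4 named as its pseudogenes, so reads may be divided between them, and the level of ATF4 is uncertain to that extent.

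ATF3, a stress-induced transcriptional regulator of the same protein family and a target of ATF4, differed more from parental cells than any other member. The gene (ENSG00000162772, chr1:212565334-212620777, plus strand) read 9.31, 9.31 and 9.21 in parental libraries, 8.14, 8.12 and 8.20 in the libraries labelled KD and 8.86, 8.81 and 8.84 in those labelled OE. The 3 groups did not overlap, and the libraries labelled OE lay between the others (means 9.28 ± 0.060, 8.16 ± 0.042 and 8.84 ± 0.026). The difference from parental cells was -1.12 ± 0.04 for KD and -0.44 ± 0.04 for OE. Of 1487 genes of like level, 97.7% had a smaller absolute difference in KD and 96.4% in OE.

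GDF15, a secreted stress hormone of the TGF-β family, was low only in the libraries labelled KD. The gene (ENSG00000130513, chr19:18374731-18389176, plus strand) read 7.54, 7.60 and 7.71 in parental libraries and 6.67, 6.56 and 6.59 in the libraries labelled KD. It read 7.53, 7.59 and 7.55 in those labelled OE, which overlapped with parental cells (means 7.62 ± 0.086, 6.61 ± 0.057 and 7.56 ± 0.029). The differences from parental cells were -1.01 ± 0.05 and -0.06 ± 0.05. In KD 96.9% of 1241 genes of like level had a smaller absolute difference, against 34.2% in OE. OE and KD libraries differed by 0.95 ± 0.05.

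CHAC1, an enzyme that degrades glutathione and a sensitive target of ATF4, followed the order of ATF3. The gene (ENSG00000128965, chr15:40952962-40956512, plus strand) read 7.92, 7.88 and 7.87 in parental libraries, 7.05, 7.06 and 7.08 in those labelled KD and 7.72, 7.62 and 7.59 in those labelled OE. No groups overlapped, and the means were 7.89 ± 0.025, 7.07 ± 0.019 and 7.64 ± 0.070. The differences from parental cells were -0.82 ± 0.04 and -0.24 ± 0.04, and 94.4% and 84.3% of 1254 genes of like level had smaller absolute differences in KD and OE.

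SESN2 encodes a leucine sensor that restrains mTORC1. The gene (ENSG00000130766, chr1:28259518-28282491, plus strand) read 9.73, 9.78 and 9.79 in parental libraries, 9.19, 9.25 and 9.33 in the libraries labelled KD and 9.43, 9.53 and 9.45 in those labelled OE. The parental libraries were highest and the libraries labelled KD lowest, with no overlap (means 9.77 ± 0.030, 9.26 ± 0.068 and 9.47 ± 0.055). The differences were -0.51 ± 0.03 for KD and -0.30 ± 0.03 for OE, larger in absolute size than those of 92.1% and 94.2% of 1927 genes of like level.

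TRIB3, a pseudokinase that binds ATF4 and dampens it, was the exception among the lower genes, as the libraries labelled OE were lower than those labelled KD. The gene (ENSG00000101255, chr20:362835-397559, plus strand) read 10.94, 10.97 and 10.90 in parental libraries, 10.72, 10.74 and 10.78 in the libraries labelled KD and 10.67, 10.66 and 10.68 in those labelled OE. No groups overlapped, and the means were 10.94 ± 0.033, 10.75 ± 0.030 and 10.67 ± 0.012. The differences were -0.19 ± 0.02 and -0.27 ± 0.02, above those of 67.9% of 2477 genes of like level in KD and of 95.1% in OE. The 89 genes that share its 20-Mb stretch of chromosome 20 had median differences of -0.10 in KD and -0.11 in OE, and with such block medians removed the TRIB3 differences were -0.09 and -0.16.

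SLC7A11, the cystine transporter, which is a target of ATF4 and of NRF2, was the one member that was higher in all libraries labelled KD than in all parental ones. The gene (ENSG00000151012, chr4:138164097-138242349, minus strand) read 10.41, 10.33 and 10.45 in parental libraries, 10.60, 10.63 and 10.57 in those labelled KD and 10.44, 10.43 and 10.37 in those labelled OE. The KD values lay above all others, and OE and parental values overlapped (means 10.40 ± 0.060, 10.60 ± 0.031 and 10.41 ± 0.034). The differences were 0.20 ± 0.03 and 0.01 ± 0.03, above those of 68.4% and 10.4% of 2506 genes of like level. Its neighbourhood on chromosome 4 (53 genes) had a median difference of 0.14 in KD, and with block medians removed the KD difference of SLC7A11 was 0.06. An antisense gene, SLC7A11-AS1, covers 865 of its 9645 exonic bases.

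DDIT3 encodes CHOP, the death-promoting factor downstream of ATF4, and was scarcely expressed. The gene (ENSG00000175197, chr12:57516588-57521737, minus strand) read 3.66, 3.62 and 3.58 in parental libraries, 3.72, 3.70 and 3.66 in the libraries labelled KD and 3.64, 3.74 and 3.73 in those labelled OE. All 3 groups overlapped, with means of 3.62 ± 0.042, 3.69 ± 0.031 and 3.70 ± 0.058. The differences were 0.07 ± 0.04 and 0.08 ± 0.04. At low levels such as this one rlog values are strongly shrunken. Genes with a mean rlog from 2 to 4 had a median absolute difference of 0.04 in KD, against 0.16 for genes from 8 to 10. For genes from 0 to 2 it was smaller still, at 0.016. The size of a DDIT3 difference therefore cannot be set beside that of ATF3. DDIT3 also shares 39.6% of its annotated exonic bases with other genes, 355 of 1307 bases with MARS1 alone, and reads on shared bases may have been left uncounted, so its level is uncertain.

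**Figure D1:**
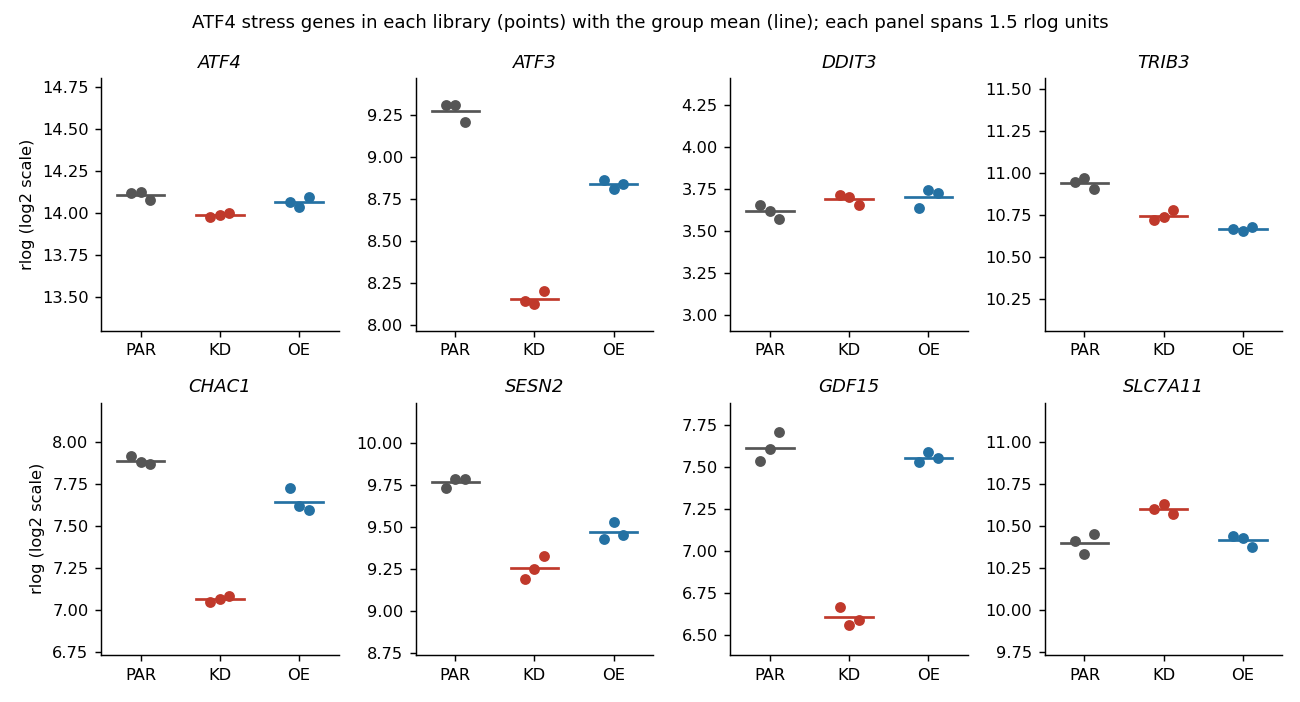
Expression of the 8 genes in each library. The y axis is the rlog value (log2 scale), each panel spans 1.5 rlog units around its own level, points are the 3 libraries of a group and lines the group means. ATF3, CHAC1, SESN2 and GDF15 stand lowest in the libraries labelled KD, DDIT3 shows overlapping groups near 3.7, and ATF4 differs little at 14.

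Of the 8 genes, 6 were lower in every library labelled KD than in every parental library, where 29.6% of all genes show this pattern, and 1 was higher throughout, again beside 29.6% of all genes. In the libraries labelled OE 4 genes were lower with no overlap, beside 22.0% of all genes, and 0 were higher, beside 21.2%. Between OE and KD 5 were higher in OE and 2 lower, beside 27.6% and 26.5%. Since the genes were chosen with these contrasts known, nothing is read from these counts. The order of the group means was parental, OE, KD from high to low for ATF4, ATF3, CHAC1, SESN2 and GDF15. In this order the parental and OE libraries of ATF4 and of GDF15 overlapped. The KD and OE comparisons share the parental libraries, and OE against KD uses the same KD and OE libraries again.

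The sizes fall into 3 kinds when set against level. ATF3, GDF15, CHAC1 and SESN2 had KD differences that were 7.01, 5.67, 4.4 and 3.38 times the median absolute difference of genes at their level. For TRIB3 and SLC7A11 the ratio was 1.54 in both, and for ATF4 it was 1.02. In OE the order changed: ATF3 stood at 4.97 times the median, TRIB3 at 3.84, SESN2 at 3.59 and CHAC1 at 2.58. GDF15 and ATF4 were at 0.64, and SLC7A11 was lowest at 0.20. DDIT3 had ratios of 1.33 and 2.30, with groups that overlapped.

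**Figure D2:**
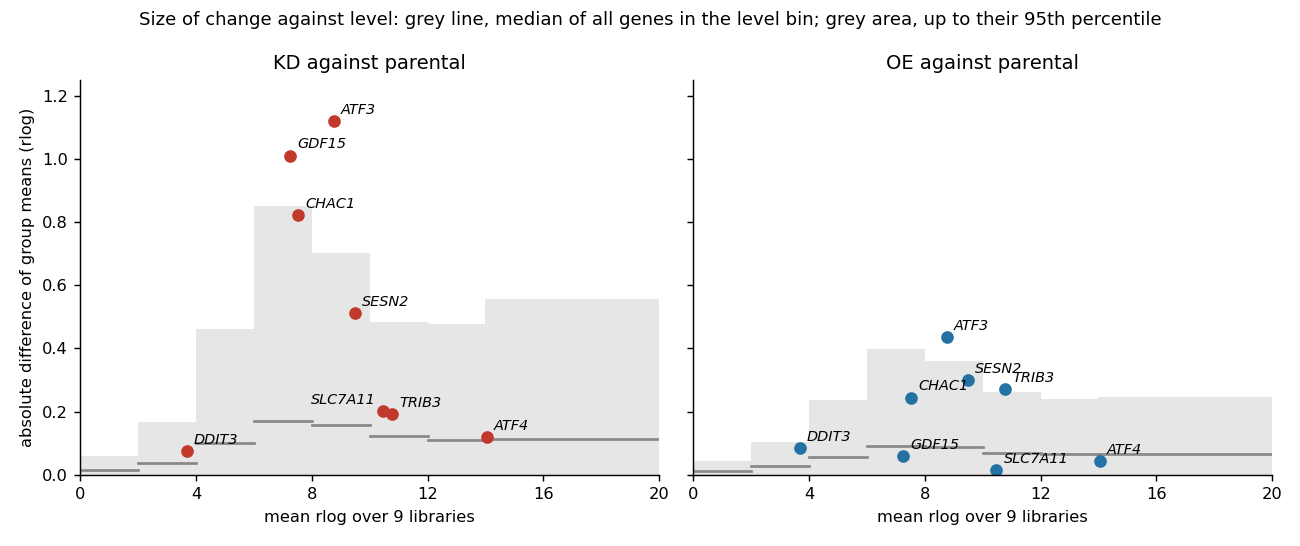
Absolute difference from the parental mean (y axis, rlog units) against the mean rlog over all 9 libraries (x axis) for the 8 genes, in KD and in OE. Grey lines give the median of all genes in each range of levels and grey areas reach up to their 95th percentile (0.85 at levels from 6 to 8 and 0.17 from 2 to 4 in KD). ATF3 and GDF15 lie above the grey area in KD, and ATF3 and TRIB3 in OE.

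Levels can be compared between genes only per length. With the log2 of the annotated exonic length in kilobases taken off the mean rlog, ATF4 was highest at 12.67, followed by TRIB3 at 9.07, SESN2 at 7.71, SLC7A11 at 7.20, ATF3 at 6.76, CHAC1 at 6.50 and GDF15 at 6.20, with DDIT3 last at 3.28. The exonic length joins all annotated transcripts, so the true order of close neighbours such as CHAC1 and GDF15 may differ. The gene furthest upstream thus had the highest message level, and its message differed less between groups than those of most of its targets.

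The genes whose pattern over the 9 libraries came nearest to each member, among genes within 1 rlog unit of its level, differed from it by a small root mean square distance once each was centred on its parental mean. For ATF4 these were CCT5 (distance 0.010), TSC22D1 (0.018) and DDX1 (0.019). For ATF3 they were NMNAT2 (0.073), NEK10 (0.099) and ARHGAP29 (0.11), and for CHAC1 PRAG1 (0.036), AKR1C1 (0.053) and EPB41L4B (0.067). GDF15 had TNFRSF11B (0.062), SLC19A3 (0.076) and DMD (0.078) nearest, and SESN2 had BST1 (0.046), HDAC9 (0.051) and ZNF718 (0.051). For TRIB3 they were MAP2K3 (0.022), S100A13 (0.023) and PKMYT1 (0.027), and for SLC7A11 STXBP5 (0.029), SSX2IP (0.030) and BAHCC1 (0.031). DDIT3 had CRB1 (0.030) and a pair of genes without a symbol. These are likenesses of values only.

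The promoters of the members were searched because several of them were low in the same libraries. RefSeq promoters (GRCh38.p14, 250 bases before to 50 after a start) were at hand for 7 of the 8 members, all but SLC7A11, some with several starts. The core of the C/EBP-ATF response element, TGATGNAA on either strand, was found in the promoters of ATF3 and CHAC1. It occurred in 3.62% of 35116 promoters and in at least 1 promoter of 4.46% of 27305 genes. Among the other genes of the ATF4 pathway (described below) 13 of 57 with a promoter held it, which is 22.8%. The sequences below show the core in capitals with the bases around it, on the strand of the gene, for both members, for 3 pathway genes called lower in KD (CEBPG, JDP2 and IARS1) and for AARS1, which was not called in KD. These 4 pathway genes were chosen after their values were seen. In CHAC1, IARS1 and AARS1 the core lies on the other strand and reads TTGCATCA.
ATF3: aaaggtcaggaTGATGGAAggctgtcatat
CHAC1: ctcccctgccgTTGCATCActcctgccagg
CEBPG: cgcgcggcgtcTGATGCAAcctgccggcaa
JDP2: atagccggggcTGATGCAAcccgtccc
IARS1: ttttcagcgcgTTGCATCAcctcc
AARS1: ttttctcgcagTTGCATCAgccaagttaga

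The ATF3 sequence (chr1:212565205-212565234, plus strand) lies outside annotated exons and introns, with the core at bases -191 to -184 from a start. The CHAC1 sequence (chr15:40953251-40953280, plus strand) has its core at -209 to -202 and overlaps an annotated exon of CHAC1. The CEBPG sequence (chr19:33374060-33374089, plus strand, core at -42 to -35) and the JDP2 sequence (chr14:75427995-75428021, plus strand, core at -16 to -9) lie in annotated introns of the same genes. The IARS1 sequence (chr9:92293698-92293721, minus strand, core at -13 to -6) overlaps an annotated exon of IARS1, and the AARS1 sequence (chr16:70289675-70289704, minus strand, core at -187 to -180) overlaps exons of AARS1 and of its neighbour DDX19B. The cAMP response element TGACGTCA was in no promoter of a member and in 1.85% of all promoters. The core of the antioxidant response element, TGACNNNGC, was in a promoter of 1 member, TRIB3, and in 13.35% of all promoters. A match is a match of letters and not a measured binding site, and its absence says only that these letters are not in this window.

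The other genes of the pathway, the 8 members left out, were tested with limma in the 22290 genes together. Over 7 lists 84 genes were named and 74 had values. In the libraries labelled KD 37 of the 74 were lower than in parental cells and 20 were higher, at 50% and 27.0% of the list. Of all genes 26.9% were called lower and 26.9% higher, 53.7% in all. In the libraries labelled OE 21 were lower and 22 higher, at 28.4% and 29.7%, against 18.0% and 16.9% of all genes and 34.8% in all. Between OE and KD 39 were higher in OE and 9 lower, at 52.7% and 12.2%, against 23.5% and 23.8% of all genes and 47.3% in all. The median difference of the 74 genes was -0.07 in KD, -0.01 in OE and 0.06 between OE and KD, where the medians of all genes were under 0.001 in size. With 11980 of 22290 genes past the test in KD, a call says that a difference exceeded a small spread between libraries and not that it was large. Only 4 of the 57 KD calls, 2 of the 43 OE calls and 3 of the 48 calls between OE and KD had an absolute difference over 0.5.

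The transporters that bring in amino acids were the only one of the 7 pathway lists with no call in the opposite direction in KD or OE. Of 7 measured genes 6 fell in the libraries labelled KD and 5 in those labelled OE, none rose in either, and 6 were higher in OE than in KD. The cystine transporter SLC7A11 is not in this list because it is a member, and it stood 0.20 above parental cells in KD. SLC7A5, the light chain of the large neutral amino acid transporter, read 14.62 in parental cells as a mean, fell by 0.84 ± 0.01 (SE, limma adjusted p = 1.41e-30) in KD and by 0.29 ± 0.01 in OE, with all 3 libraries of either group under all 3 parental ones. Its heavy chain SLC3A2, which also pairs with SLC7A11, fell by 0.57 ± 0.015 and by 0.24 ± 0.015. The annotation holds 2 pseudogenes of SLC7A5, so the level of SLC7A5 is uncertain. For the other 5 genes of the list the differences were -0.38 and -0.18 (SLC1A5, a glutamine transporter), -0.30 and -0.13 (SLC7A1, cationic amino acids), -0.23 and -0.03 (SLC38A2, small neutral amino acids), -0.29 and 0.0078 (SLC6A9, glycine) and 0.03 and -0.03 (SLC43A1). SLC6A9 was not called in OE and SLC43A1 in no comparison, and with block medians removed SLC38A2 lost its call in OE, which left 4 genes lower there.

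Among the enzymes of serine, one-carbon and other amino acid synthesis 8 of 12 fell in KD and 2 rose, while in OE 2 fell and 2 rose. PSAT1, the aminotransferase of serine synthesis, fell by 0.71 ± 0.02 in KD (limma adjusted p = 1.89e-26), with all 3 libraries under all 3 parental ones. With block medians removed this KD difference was -0.45. PSPH, the last enzyme of the same route, fell by 0.17 ± 0.02, and the mitochondrial folate enzymes SHMT2 and MTHFD2 by 0.17 ± 0.01 and 0.14 ± 0.02. The annotation holds 4 pseudogenes of PSAT1, 1 of PSPH and 7 of MTHFD2, so the levels of these genes are uncertain. PHGDH, the first enzyme of the route, went the other way and rose by 0.20 ± 0.02 in KD and by 0.22 ± 0.02 in OE. GPT2, alanine transaminase of mitochondria, fell by 0.29 ± 0.02 in KD. In OE the differences of PSPH, SHMT2, MTHFD2 and GPT2 lay between -0.04 and -0.01 and were not called. That of PSAT1 was -0.05, a call that was lost with block medians removed (-0.011). Between OE and KD 9 of the 12 were higher in OE and 0 lower. ASNS, asparagine synthetase, was not analysed here.

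Of 13 genes for cytosolic tRNA charging and tRNA export 7 fell in KD and 3 rose, against 2 and 4 in OE. Between OE and KD 9 were higher in OE and 0 lower. With block medians removed 6 were lower and 1 higher in KD, and 12 were higher and 0 lower in OE against KD. Of all 22290 genes 6693 were lower and 6462 higher in KD under that step, 3995 lower and 4370 higher in OE, and 5995 higher and 5688 lower in OE against KD. IARS1 fell by 0.40 ± 0.01 (-0.10 with block medians removed) and YARS1 by 0.27 ± 0.01 in KD, and LARS1 rose by 0.07 ± 0.01. WARS1 was called higher in KD at 0.05 ± 0.02, a call that was lost with block medians removed (0.04). In OE SARS1 and EPRS1 rose by 0.07 each, while YARS1 and NARS1 fell by 0.06 and 0.04. AARS1, whose promoter is shown above, differed by 0.01 ± 0.01 in KD with no call.

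**Figure D3:**
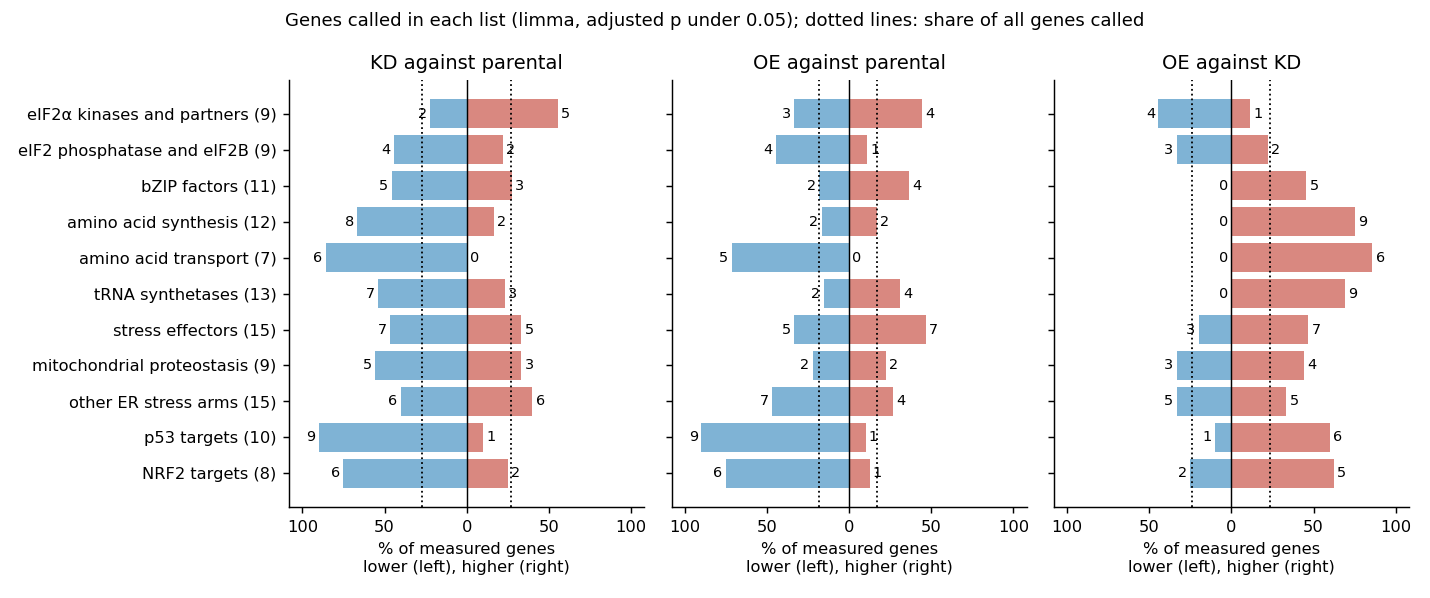
Share of the measured genes of each list called higher (to the right) or lower (to the left) in the 3 comparisons, with the number of genes beside each bar and the number measured in parentheses. Dotted lines mark the share of all genes, weakly expressed ones included, called in the same direction, 26.9% both ways for KD. p53 targets (9 of 10), amino acid transport (6 of 7) and NRF2 targets (6 of 8) reach furthest to the left in KD.

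Of 11 measured bZIP factors, the partners and competitors of ATF4, 5 fell and 3 rose in KD, and 2 fell and 4 rose in OE. In OE against KD 5 were higher and 0 lower. CEBPG, which pairs with ATF4 at many of its sites, fell by 0.43 ± 0.03 in KD and by 0.12 ± 0.03 in OE. CEBPB fell by 0.14 ± 0.03 in both. CEBPD rose by 0.43 ± 0.045 and 0.54 ± 0.045. BATF3 fell by 0.40 ± 0.05 in KD, was not called in OE at -0.045 ± 0.05, and was higher in OE than in KD by 0.36 ± 0.05. JDP2 moved in opposite directions, by -0.25 ± 0.05 in KD and by 0.30 ± 0.05 in OE. ATF5 was not analysed here.

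Upstream, the kinases changed little. EIF2AK1 (HRI) rose by 0.11 ± 0.02 in KD and 0.06 ± 0.02 in OE, EIF2AK3 (PERK) by 0.14 and 0.10, EIF2AK2 (PKR) differed by -0.07 and -0.09, and EIF2AK4 (GCN2) was not called at -0.02 in both. EIF2S1, which encodes eIF2α itself, fell by 0.30 ± 0.02 in KD and by 0.13 ± 0.02 in OE. IMPACT, an inhibitor of GCN2 activation, rose by 0.22 ± 0.02 and 0.13 ± 0.02, and PRKRA, an activator of PKR, by 0.20 ± 0.04 and 0.14 ± 0.04. Over the list of 9 genes 5 rose and 2 fell in KD, and 4 rose and 3 fell in OE. PPP1R15A (GADD34), the stress-induced subunit that restores eIF2α, fell by 0.28 ± 0.02 in KD and by 0.33 ± 0.02 in OE, and of the 9 genes of the phosphatase and of eIF2B 4 fell and 2 rose in KD, and 4 fell and 1 rose in OE. EIF2B3 fell by 0.19 ± 0.025 in KD. PPP1R15B was not analysed here.

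Of 15 stress effectors, which include PPP1R15A and CEBPB from above, 7 fell and 5 rose in KD, and 5 fell and 7 rose in OE. OE against KD gave 7 higher and 3 lower, and with block medians removed 10 and 1. The heme-degrading enzyme HMOX1 fell by 0.69 ± 0.04 in KD and by 0.20 ± 0.04 in OE, and the secreted protein STC2 by 0.39 ± 0.03 and 0.22 ± 0.03. DDIT4 (REDD1), an inhibitor of mTORC1, rose by 0.13 ± 0.02 in KD and by 0.32 ± 0.02 in OE. The lipoprotein receptor VLDLR rose by 0.23 ± 0.04 and 0.61 ± 0.04, EIF4EBP1, a repressor of translation initiation, by 0.27 ± 0.02 and 0.08 ± 0.02 (0.04 in OE and no longer called with block medians removed), and KLHL24 by 0.35 ± 0.03 and 0.25 ± 0.03. With block medians removed the KD differences of VLDLR and KLHL24 were 0.11 and 0.14.

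**Figure D4:**
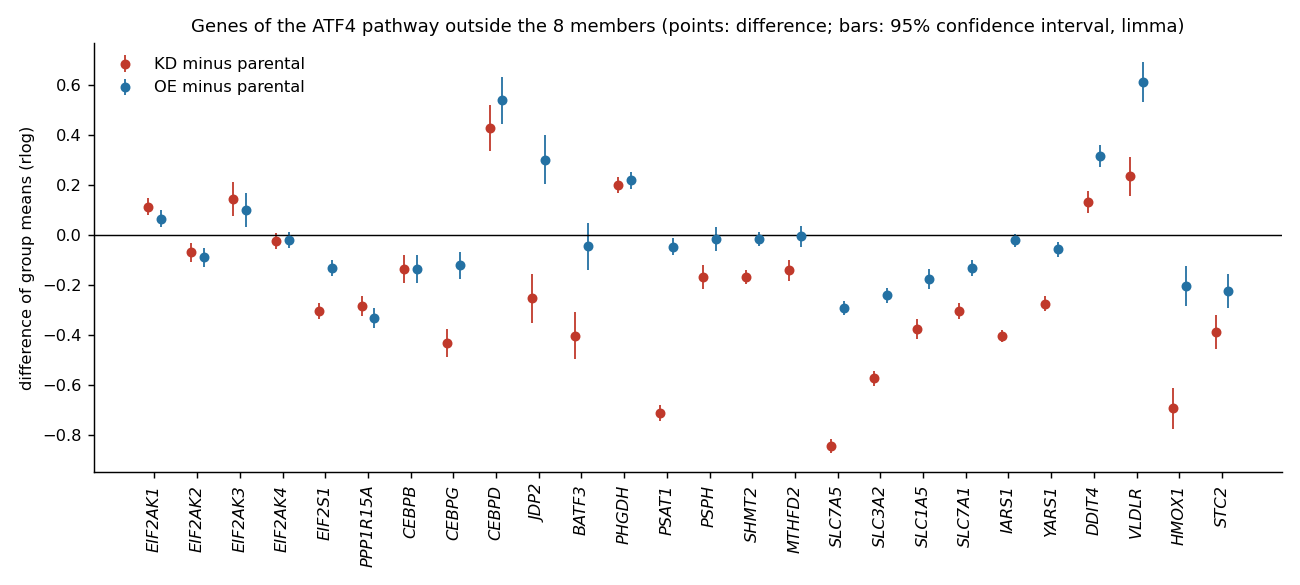
Differences from parental cells (y axis, rlog units) of 26 pathway genes outside the 8 members, in KD and OE. Points are differences of group means and bars their 95% confidence intervals from limma. SLC7A5, PSAT1 and HMOX1 lie lowest in KD, and VLDLR and CEBPD highest in OE.

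Position on the chromosome moved with some of these values. Over 161 stretches of up to 20 Mb of the nuclear chromosomes the median difference of the genes in a stretch ranged from -0.32 to 0.39 in KD and from -0.12 to 0.13 in OE, and 20 stretches exceeded 0.1 in size in KD against 4 in OE. PSAT1 lies in a stretch of chromosome 9 where 51 genes had a median of -0.26 in KD, and IARS1 in the next, where 86 genes had -0.31. With these medians removed the KD differences were -0.45 for PSAT1 and -0.10 for IARS1, and 0.14 for KLHL24 on chromosome 3 and 0.11 for VLDLR, also on chromosome 9. In OE the calls of PSAT1 and EIF2AK3 were lost with this step, at -0.011 and 0.08, and NARS1 went from -0.04 to -0.07. The same step left SLC7A5 at -0.78, SLC3A2 at -0.58, CEBPG at -0.37, HMOX1 at -0.68, ATF3 at -1.16, GDF15 at -0.998, CHAC1 at -0.81 and SESN2 at -0.49. With block medians removed 37 of the 74 pathway genes were called lower and 19 higher in KD (37 and 20 before), and 45 were higher and 6 lower in OE against KD (39 and 9 before).

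The promoter motif and the change in KD were set side by side over the pathway genes. Of the 13 pathway genes with the C/EBP-ATF core in a promoter 11 fell in KD, 0 rose, and the median difference was -0.21. Of the 44 without it 18 fell and 14 rose, with a median of -0.02. None of the eIF2α kinase, phosphatase and eIF2B genes with a promoter held the core, so genes with and without it also come from different lists. The part of this in the contrast was not tested. In OE against parental cells 6 of the 13 fell and 2 rose, with a median of -0.03. Of the 44 without the core 11 fell and 14 rose there, with a median of 0.0029. Between OE and KD 12 of the 13 were higher in OE and 0 lower, against 19 and 6 of the 44. This comparison uses the same KD libraries as KD against parental cells, so its counts are not a separate observation. In the whole table the core went with no such shift: of 428 genes that held it 31.5% fell and 28.0% rose in KD, and of 12826 genes that did not 32.1% fell and 30.3% rose. The antioxidant core was held by 17 pathway genes, of which 12 fell and 4 rose in KD, beside 35.6% and 29.4% of the 2492 genes that held it in the table. GARS1, TARS1, SLC1A5, SLC3A2 and SLC7A1 hold both cores, so the counts for the cores are not separate. The lists were made with the results known, so the counts describe these genes and no more.

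**Figure D5:**
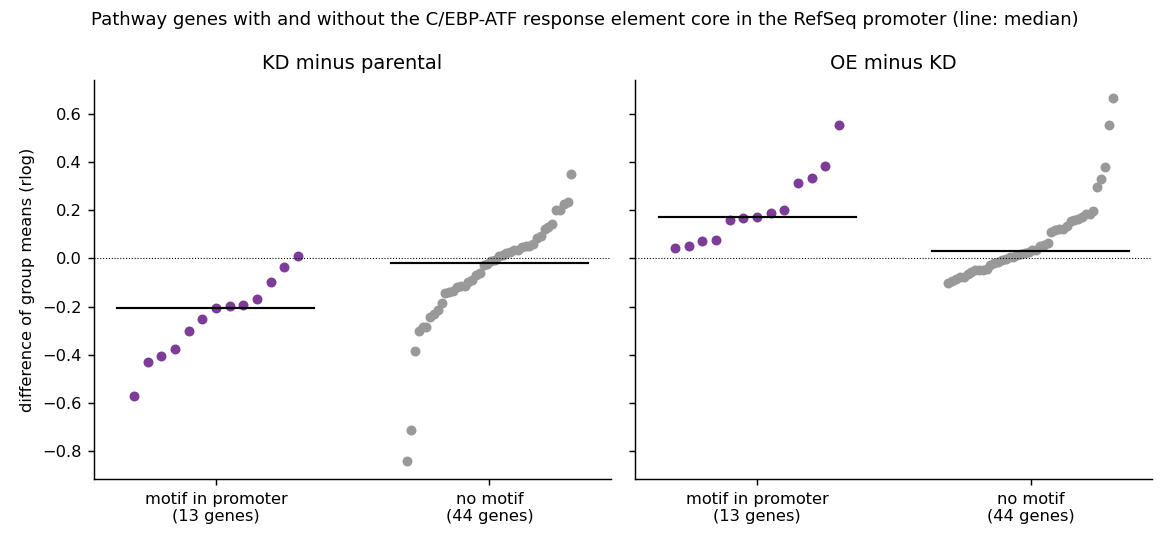
Differences between groups (y axis, rlog units) of pathway genes whose RefSeq promoter holds the C/EBP-ATF core (13 genes) or does not (44 genes). Each point is a gene, sorted by value, and the line is the median, which is -0.21 against -0.02 for KD minus parental and 0.17 against 0.03 for OE minus KD. Both panels use the same KD libraries.

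Stress programmes next to that of ATF4 were compared, and which programme the differences of the 8 members belong to was not tested. Of 10 measured p53 targets 9 fell and 1 rose in both KD and OE, with medians of -0.31 and -0.21. GADD45A fell by 0.55 ± 0.02 and 0.40 ± 0.02 and CDKN1A by 0.54 ± 0.02 and 0.48 ± 0.02, whereas CCNG1 rose by 0.23 ± 0.02 and 0.19 ± 0.02. Of 8 NRF2 targets other than SLC7A11, which include HMOX1 from the stress effectors above, 6 fell and 2 rose in KD, and 6 fell and 1 rose in OE. GCLM, the regulatory subunit of glutathione synthesis, fell by 0.80 ± 0.03 and 0.36 ± 0.03, and ME1 rose by 0.36 ± 0.02 and 0.19 ± 0.02.

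Of 15 genes of the other arms of the endoplasmic reticulum stress response 6 fell and 6 rose in KD, and 7 fell and 4 rose in OE. With block medians removed 3 were lower and 6 higher in KD, 4 were lower and 4 higher in OE, and 2 were higher and 6 lower in OE against KD, where 5 and 5 were called before. HSP90B1 and PDIA4 rose by 0.28 ± 0.01 and 0.25 ± 0.01 in KD. HSPA5 (BiP) fell by 0.34 ± 0.01 and MANF by 0.31 ± 0.02, but 209 genes around HSPA5 had a median of -0.32 and 185 genes around MANF one of -0.27, and with these removed both KD differences were no longer called, at -0.014 and -0.037. Among 9 genes of mitochondrial protein quality control 5 fell and 3 rose in KD, and TRAP1 itself is among those that rose. In OE 2 fell and 2 rose, or 3 and 3 with block medians removed. The mitochondrial chaperones HSPD1 and HSPA9 fell by 0.33 ± 0.01 and 0.22 ± 0.01 in KD, while the protease HTRA2 rose by 0.23 ± 0.025. The annotation holds 18 pseudogenes of HSPD1, so its level is uncertain.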

How the data were processed

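RNA from cells labelled IMR-32 was sequenced after a TruSeq v2 preparation, which does not mark strand. Per the submitters' notes the authors used cutadapt for trimming, HISAT2 on GRCh38 for mapping and featureCounts for counts per gene, and the deposited values are rlog values (log2 scale) from DESeq2. Versions are not given in the sources used here. The table held 9 columns of values and 3 empty ones. Of 22290 gene IDs 22195 matched GENCODE release 44.

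Group differences were fitted over all 9 libraries and all genes with limma 3.58.1 in R 4.3.3 (moderated linear model, trend of variance on level, two-sided, Benjamini-Hochberg), with a call at an adjusted p under 0.05. The procedure was tested on simulated data, and RefSeq promoters were searched on both strands. No filter on low values was used, and 7 of the 8 members have a mean rlog of at least 5. The members and lists were chosen with earlier results of these data known. Named were the members, fixed regulators and enzymes, and in each list up to 2 called genes with the largest increase and decrease in KD and in OE, with the 3 nearest patterns of each member. Amino acid transport was given gene by gene. ADM2 and the pathway genes shown with a sequence were chosen after their values were seen. Of 176 listed genes 24 were not analysed here.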

Additional observations from a re-analysis of the deposited data

Results flagged for a closer look

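JDP2, a bZIP repressor that can pair with ATF4 relatives, was called lower in the libraries labelled KD and higher in those labelled OE, against the same parental libraries. OE exceeded KD by 0.5545 ± 0.05 (SE, limma), a difference that was itself tested and called. It read 6.29 as a mean in parental cells, 6.04 in KD and 6.59 in OE.

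ADM2, a secreted peptide of the adrenomedullin family, showed the same contrast at a lower level. It read 5.88 as a mean in parental cells, 5.74 in KD and 6.07 in OE, and OE exceeded KD by 0.3270 ± 0.05. These 2 genes are 2.7% of the 74 pathway genes, and 4.24% of all genes were called in opposite directions in this way, so the pathway held no excess of such genes.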

How the results depend on the processing

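The 18 counts of genes called (pathway and all genes, in total and by direction, 3 comparisons) stayed within 1.5 times their value without a variance trend, with genes of a mean rlog of at least 5, with only the groups compared, with library medians aligned, with block medians removed and without each library in turn. Replicate numbers are shared between groups, but of 9 library pairs with the same number only 2 correlated over 0.1 (range -0.071 to 0.14), so the numbers were not taken as pairs. With a replicate block 58, 44 and 48 pathway genes were called in KD, OE and OE against KD. Counts fell most with an absolute difference over 0.5 required: 4 called in KD (0 higher, 4 lower), 2 in OE (2 higher, 0 lower) and 3 in OE against KD (3 higher, 0 lower). In 50 pathway genes that share at most 10% of exonic bases and have no annotated pseudogene, an alternative added after seeing the data, 24 were lower in KD instead of 37 of 74, since fewer genes were counted. Without 1 library, pathway calls ranged from 53 to 58 in KD, 40 to 44 in OE and 43 to 48 in OE against KD.

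With block medians removed, 7 of 24 member differences moved by more than the pooled SD of the gene's replicates: ATF4 to -0.0059 in OE and 0.10 in OE against KD, TRIB3 to -0.09 in KD and -0.16 in OE, and SLC7A11 to 0.06 in KD, -0.03 in OE and -0.10 in OE against KD. No sign turned between groups that did not overlap, and no member moved so far without a library. For named genes, counting only differences called before or after the step, the sign turned with block medians removed in KD for GCN1 (0.0302), and in OE against KD for CEBPB (0.0696), WARS1 (0.0559), KLHL24 (0.1158), HSPA5 (-0.0066) and MANF (-0.0294). The cause was not tested. Results for named genes were weaker in 14 cases without a variance trend and in 3 to 9 cases without 1 library. Over all settings 87 were weaker, 12 stronger and 3168 the same. Depth is unknown from rlog values, and differences of low genes such as DDIT3 are limited by the shrinkage.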

Other observations

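PRRX1, a homeobox factor of mesenchymal cells, had the largest difference of any marker on the lists. It read 11.70 as a mean in parental cells, 12.99 in the libraries labelled KD and 12.39 in those labelled OE, and was higher than in parental cells by 1.29 ± 0.02 and 0.69 ± 0.02 (SE, limma). TWIST1 rose with it, by 0.43 ± 0.04 and 0.28 ± 0.04. The tight junction gene CLDN4 fell by 0.57 ± 0.03 in OE and was not called in KD at -0.06 ± 0.03. PECAM1 rose by 0.47 ± 0.03 in KD and fell by 0.28 ± 0.03 in OE.

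The keratin KRT8 rose by 0.39 ± 0.03 in KD and 0.40 ± 0.03 in OE, while KRT7 fell by 0.27 ± 0.05 in KD and was not called in OE at -0.08 ± 0.05. The annotation holds 51 pseudogenes named after KRT8 and 68 of KRT18, so the levels of KRT8 and KRT18 are uncertain.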
